A study of Homo sapiens with 5 samples.

Results

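The genes described here are 10 transporters that carry amino acids or related small nutrients across the cell surface, taken by name from the 33538 genes of the count matrix. They are SLC7A11, SLC7A5, SLC3A2, SLC1A5, SLC1A4, SLC38A1, SLC38A2, SLC7A1, SLC6A14 and SLC43A3, and all 10 had counts in every sample. They were measured in MDA-MB-468 cells, a cell line from a triple-negative breast tumour, in which FOSL1 was raised in separate ways. The protein of FOSL1 is FRA-1, which pairs with a JUN protein to form the transcription factor AP-1. The groups were HA FOSL1 cells, set against HA control cells, and VPR cells with a FOSL1 guide RNA, gRNA2 or gRNA3, set against VPR control cells. Neither HA nor VPR is spelled out in the labels, and the samples with the prefix HA were matched to their hashtags by elimination. The labels do not say whether the engineered cells were clones or pools. Every group was the same line grown in DMEM with 10% serum. The labels speak of 5-fluorouracil treatment in the series and do not say whether these samples had any. Each group held 1 sample and all 5 samples were run in 1 library, so no difference between samples could be checked in replicates, and the 95% intervals in brackets hold counting error alone.

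Amino acid transporters let a growing cell import what it cannot make and export what it trades. SLC7A11 and SLC7A5 are light chains that reach the cell surface bound to the heavy chain SLC3A2 (CD98). With SLC7A11 the pair, called system xc-, imports cystine for glutathione in exchange for glutamate, and with SLC7A5 (LAT1) it exchanges large neutral amino acids such as leucine. SLC1A5 (ASCT2) and SLC1A4 (ASCT1) are sodium-dependent exchangers of small neutral amino acids, SLC1A5 also of glutamine. SLC38A1 and SLC38A2 import glutamine and alanine with sodium, SLC7A1 (CAT1) carries arginine and lysine, and SLC6A14 carries neutral and cationic amino acids with sodium and chloride. SLC43A3 belongs to a family with LAT-type amino acid carriers, but is known itself as a carrier of purine nucleobases. Several of these genes are known targets of ATF4, the factor that answers amino acid shortage.

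Kept cells numbered between 1826 (HA FOSL1) and 4299 (gRNA3) per sample, with 42058533 to 85556699 UMIs (unique transcript tags) in all. The median depth was highest in HA FOSL1 cells (20768.5 UMIs), against 15401.5 UMIs in HA control cells. It was 17414.5 with gRNA2 and 18121 with gRNA3, against 15810 in VPR control cells. FOSL1 itself stood at 63.5 CPM (UMIs per 1000000 UMIs of the sample) in HA FOSL1 cells, against 8.96 CPM in HA control cells. It stood at 100.5 CPM with gRNA2 and 94.3 CPM with gRNA3, against 8.91 CPM in VPR control cells. The epithelial markers EPCAM, KRT8, KRT18, KRT19 and CDH1 and the receptor gene EGFR were all above 30 CPM in every sample. Another 10 genes mark other cell types or encode receptors, and were expected to be low or absent. Of these, PGR was at 0 in every sample, the leukocyte gene PTPRC reached at most 0.36 CPM, and the highest was ERBB2 at 9.41 to 13.5 CPM.

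The transporters did not move as a group. SLC6A14 was lower in all 3 FOSL1 samples than in their own controls, and so, by less, were SLC7A11 and SLC1A5. SLC43A3 was higher in all 3. SLC7A5, SLC1A4 and SLC38A1 were also higher in all 3, each with a guide interval that held 0. SLC1A5 and SLC1A4 stood apart mainly in the HA system, and SLC3A2 and SLC38A1 hardly varied. The 10 genes together made up 693 CPM in HA FOSL1 cells, against 681 CPM in HA control cells. They made up 655 CPM with gRNA2 and 678 CPM with gRNA3, against 668 CPM in VPR control cells. On the log2 scale of CPM + 1, the range over the 5 samples was 1.32 for SLC6A14, 0.59 for SLC1A4 and for SLC43A3, 0.51 for SLC1A5, 0.46 for SLC7A11, 0.35 for SLC7A5, 0.31 for SLC38A2, 0.22 for SLC7A1, 0.14 for SLC3A2 and 0.08 for SLC38A1. Of the 30 ratios of a FOSL1 sample to its own control, 3 were past 1.5-fold, and all 3 were those of SLC6A14.

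**Figure D1:**
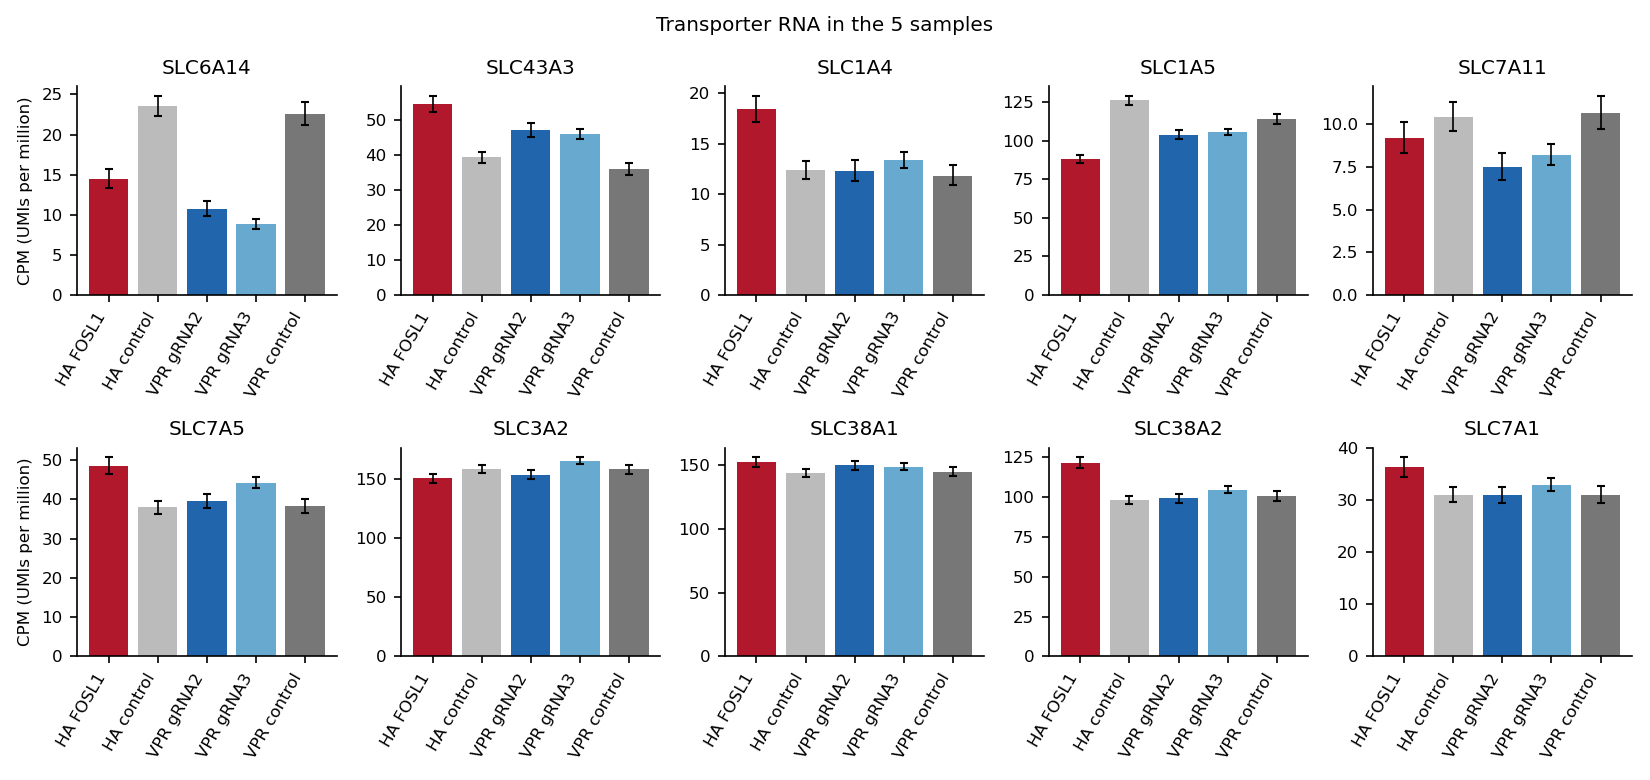
Level of each transporter in the 5 samples, in CPM (scaled UMI counts, vertical axes starting at 0, scales differ between panels). Bars are single samples and lines are exact 95% Poisson intervals of the count; SLC6A14 sits at 14.5, 10.7 and 8.82 CPM in the FOSL1 samples, against 23.5 and 22.6 CPM in the controls.

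SLC6A14 (ENSG00000268104, chrX:116436606-116461458 in the RefSeq annotation of GRCh38.p14) was the transporter that differed most. It stood at 14.5 CPM (13.4 to 15.7) in HA FOSL1 cells, against 23.5 CPM (22.3 to 24.8) in HA control cells. In the guide samples it stood at 10.7 CPM (gRNA2, 9.81 to 11.7) and 8.82 CPM (gRNA3, 8.21 to 9.48), against 22.6 CPM (21.2 to 24.0) in VPR control cells. Both controls were above all 3 FOSL1 samples, and no interval of a FOSL1 sample reached that of a control. The log2 ratio to the own control was -0.66 (-0.79 to -0.53) in the HA system, a 1.58-fold difference. It was -1.01 (-1.15 to -0.86) with gRNA2 and -1.26 (-1.39 to -1.14) with gRNA3, or 2.01-fold and 2.40-fold lower. The controls themselves differed by -0.06 (-0.17 to 0.06, VPR over HA) and the guides by -0.25 (-0.40 to -0.11, gRNA3 over gRNA2).

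SLC6A14 lay below a mean of 20 CPM, the floor for counting all genes, so a floor of 5 CPM, which all 10 transporters passed, was added after its level was seen. At that floor the share of genes at least 1.5-fold lower was 3.54% in the HA system, 0.811% with gRNA2 and 1.27% with gRNA3, and 1 of the 10 transporters was among them in each. In all 3 comparisons 57 of 9853 genes were that much lower, or 0.579%. No transporter was 1.5-fold higher, beside 6.21% of genes in the HA system and 1.2% with either guide. At 20 CPM, 0 of 7 transporters were past 1.5-fold in either direction, beside 8.16%, 1.51% and 1.79% of genes in the HA, gRNA2 and gRNA3 comparisons. Between the controls 0.313% of genes at 5 CPM were past that size and between the guides 0.123%, and 0 of the 10 transporters in either.

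A model of the 5 summed samples, with the system as a covariate, took the 3 FOSL1 samples as repeats of 1 effect (edgeR quasi-likelihood test, 2 residual degrees of freedom). It called 1 of the 10 transporters, SLC43A3, beside 1.61% of 15439 genes. For SLC6A14 it gave a log2 change of -0.97 (SE 0.15), lower in 3 of 3 arms, which missed the threshold of 0.05 (edgeR adjusted p = 0.053). DESeq2 on the same counts gave -0.96 with an adjusted p of 9.5e-06. At an unadjusted p under 0.05 edgeR had 3 transporters above and 3 below the controls, beside 13.4% and 12.6% of all genes, and DESeq2 called 2 of the 10, beside 7.48% of 14931 genes with an adjusted p. Leaving out either guide took the edgeR adjusted p to 0.149 without gRNA2 and 0.168 without gRNA3. Without the HA control or HA FOSL1 the change rests on the guides over 1 VPR control, and came to -1.21. Without the VPR control it rests on the HA pair alone, and came to -0.67. In those fits the spread comes from the 2 guide samples alone, so for every transporter only their sizes are given. Because the pool held 1 sample of each kind, the p-values given speak of how constructs and guides varied, and of nothing beyond them.

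SLC43A3 (ENSG00000134802, chr11:57406954-57427580) was the transporter that rose by this test. Its level was 54.6 CPM (52.4 to 56.9) in HA FOSL1 cells, against 39.3 CPM (37.7 to 41.0) in HA control cells. The guide samples had 47.1 CPM (gRNA2, 45.1 to 49.0) and 46.1 CPM (gRNA3, 44.7 to 47.5), against 36.0 CPM (34.3 to 37.8) in VPR control cells. All 3 FOSL1 samples lay above both controls without overlap of their intervals. The log2 ratios were 0.46 (0.38 to 0.55) in the HA system, 0.38 (0.29 to 0.47) with gRNA2 and 0.35 (0.26 to 0.43) with gRNA3, all under 1.5-fold. The controls differed by -0.12 (-0.21 to -0.03, VPR over HA). In the model its rise was 0.44 on the log2 scale (SE 0.056, edgeR adjusted p = 0.043), with the same direction in 3 of 3 arms, and the guides did not differ beyond counting error (log2 -0.03, -0.10 to 0.04). The call was lost without gRNA2 (edgeR adjusted p = 0.149), without gRNA3 (0.190) and without the covariate (0.108). SLC43A3 and SLC3A2 lie on chromosome 11 with FOSL1, 8.46 and 3.00 Mb from it.

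Among the CD98 partners, the cystine carrier SLC7A11 was the lowest in every sample. It stood at 9.18 CPM (8.29 to 10.1) in HA FOSL1 cells, against 10.4 CPM (9.58 to 11.3) in HA control cells. The guide samples had 7.47 CPM (gRNA2, 6.72 to 8.29) and 8.22 CPM (gRNA3, 7.62 to 8.85), against 10.7 CPM (9.72 to 11.7) in VPR control cells. The guide samples lay below their control beyond counting error, while the HA samples overlapped. The log2 ratios were -0.16 (-0.33 to 0.01) in the HA system, -0.46 (-0.64 to -0.28) with gRNA2 and -0.34 (-0.49 to -0.18) with gRNA3, and the model gave -0.30 (SE 0.10, edgeR adjusted p = 0.149). The change came to -0.41 without the HA control or HA FOSL1, from the guide comparisons alone. Without the VPR control it came to -0.15, from the HA pair alone.

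The leucine carrier SLC7A5 differed the other way in the HA system. It stood at 48.5 CPM in HA FOSL1 cells, against 37.9 CPM in HA control cells, and at 39.5 CPM with gRNA2 and 44.2 CPM with gRNA3, against 38.3 CPM in VPR control cells. HA FOSL1 was the highest sample, and the gRNA2 sample and both controls overlapped. The ratios were 0.35 (0.26 to 0.43), 0.04 (-0.05 to 0.13) and 0.20 (0.12 to 0.28) in the HA, gRNA2 and gRNA3 comparisons. The model change of 0.25 (SE 0.088) missed the threshold (edgeR adjusted p = 0.163). It came to 0.15 without the HA control or HA FOSL1, from the guide comparisons alone. Without the VPR control it came to 0.39, from the HA pair alone.

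The shared heavy chain SLC3A2 stayed within a narrow band. It stood at 150.2 CPM in HA FOSL1 cells, against 157.9 CPM in HA control cells, and at 153.6 CPM with gRNA2 and 165.2 CPM with gRNA3, against 157.9 CPM in VPR control cells. Its log2 ratios were -0.07, -0.04 and 0.06 in the HA, gRNA2 and gRNA3 comparisons, and the model gave 0.00 (SE 0.056, edgeR adjusted p = 0.998). The guide samples differed from each other (log2 0.10, 0.06 to 0.15) by more than either differed from its control.

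Of the carriers of glutamine and small neutral amino acids, SLC1A5 (ENSG00000105281, chr19:46774883-46788594) was at its lowest in HA FOSL1 cells. It stood at 88.2 CPM (85.3 to 91.0) there, against 126.2 CPM (123.3 to 129.2) in HA control cells. The guide samples had 103.9 CPM (gRNA2, 101.0 to 106.8) and 105.8 CPM (gRNA3, 103.7 to 108.0), against 114.1 CPM (111.0 to 117.2) in VPR control cells. The order ran from HA FOSL1 through the overlapping guide samples and the VPR control to the HA control. The ratio was -0.51 (-0.57 to -0.46) in the HA system, -0.13 (-0.19 to -0.08) with gRNA2 and -0.11 (-0.16 to -0.06) with gRNA3. The controls differed by slightly more than the guide samples did from theirs (-0.14, -0.20 to -0.09, VPR over HA). The model gave -0.27 (SE 0.093, edgeR adjusted p = 0.157). It came to -0.10 without the HA control or HA FOSL1, from the guide comparisons alone. Without the VPR control it came to -0.49, from the HA pair alone.

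SLC1A4 (ENSG00000115902, chr2:64988479-65023865), of the same family, stood out in the same sample in the other direction. It stood at 18.4 CPM (17.1 to 19.7) in HA FOSL1 cells, against 12.3 CPM (11.4 to 13.3) in HA control cells. The guide samples had 12.3 CPM (gRNA2, 11.3 to 13.3) and 13.3 CPM (gRNA3, 12.6 to 14.1), against 11.8 CPM (10.9 to 12.9) in VPR control cells. Only the HA FOSL1 sample was clear of the others, and the remaining 4 overlapped. The ratio was 0.54 (0.40 to 0.68) in the HA system, 0.05 (-0.11 to 0.21) with gRNA2 and 0.16 (0.02 to 0.30) with gRNA3, and the model gave 0.34 (SE 0.13, edgeR adjusted p = 0.178). It came to 0.14 without the HA control or HA FOSL1, from the guide comparisons alone. Without the VPR control it came to 0.61, from the HA pair alone.

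SLC38A2, a glutamine and alanine importer that amino acid shortage is known to induce, was also highest in HA FOSL1 cells. It stood at 121.4 CPM there, against 97.9 CPM in HA control cells, and at 99.1 CPM with gRNA2 and 104.6 CPM with gRNA3, against 100.7 CPM in VPR control cells. Its ratios were 0.31 (0.25 to 0.36), -0.02 (-0.08 to 0.04) and 0.05 (0.00 to 0.10), so the gRNA2 sample and its control did not differ beyond counting error. The model gave 0.17 (edgeR adjusted p = 0.274). From the guide comparisons alone it came to 0.03 without the HA control and 0.04 without HA FOSL1. Without the VPR control it came to 0.34, from the HA pair alone. SLC38A1, its close relative, was the steadiest of the 10. It stood at 152.1 CPM in HA FOSL1 cells, against 143.9 CPM in HA control cells, and at 149.9 CPM with gRNA2 and 148.7 CPM with gRNA3, against 144.7 CPM in VPR control cells. Its ratios of 0.08, 0.05 and 0.04 were all on 1 side, and the model gave 0.08 (SE 0.044, edgeR adjusted p = 0.286).

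The arginine and lysine carrier SLC7A1 stood at 36.3 CPM (34.5 to 38.2) in HA FOSL1 cells, against 31.0 CPM (29.5 to 32.4) in HA control cells. It stood at 30.9 CPM with gRNA2 and 32.9 CPM with gRNA3, against 31.0 CPM in VPR control cells. The HA FOSL1 sample was the highest, and the guide samples overlapped both controls. The ratios were 0.22 (0.13 to 0.32), -0.00 (-0.11 to 0.10) and 0.08 (-0.01 to 0.17) in the HA, gRNA2 and gRNA3 comparisons. In cells thinned to equal depth the HA ratio came to 0.06, and HA FOSL1 was no longer the highest sample. Thinned cells held a mean of 0.162 SLC7A1 UMIs in HA FOSL1, against 0.154 in the HA control. With gRNA2 they held 0.164 and with gRNA3 0.174, against 0.152 in the VPR control. The model gave 0.15 (edgeR adjusted p = 0.276). It came to 0.06 without the HA control or HA FOSL1, from the guide comparisons alone. Without the VPR control it came to 0.26, from the HA pair alone.

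**Figure D2:**
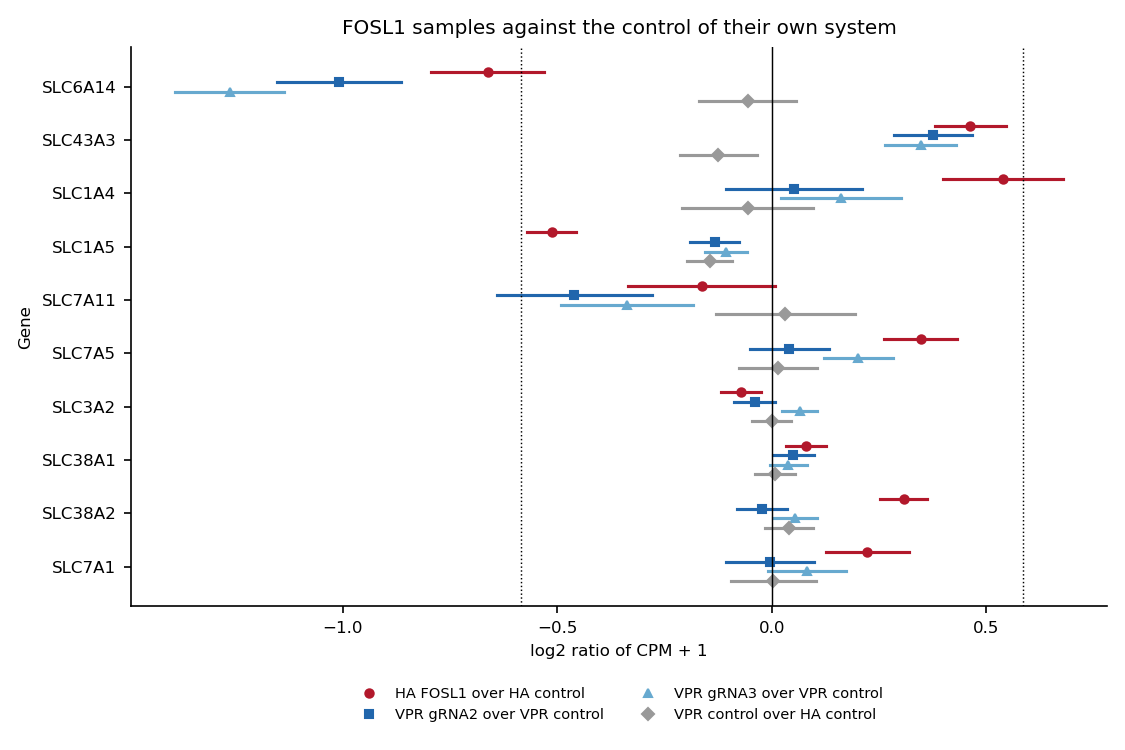
Log2 ratio of CPM + 1 of each FOSL1 sample to the control of its own system, with the ratio of the VPR control to the HA control in grey (horizontal axis). Lines are 95% intervals of counting error and dotted lines mark 1.5-fold; SLC6A14 lies at -0.66 (HA), -1.01 (gRNA2) and -1.26 (gRNA3) and SLC43A3 at 0.46, 0.38 and 0.35 in the same order.

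The guide comparisons were set against the HA comparison with an interaction term in edgeR (guides minus HA, 1 residual degree of freedom). Its spread comes only from the 2 guide samples, which share 1 control, and holds no variation of HA or control samples, so a call on it does not show that the systems differ. It called 4 of the 10 transporters, beside 13.6% of 15439 genes. The guide effect was higher than the HA effect for SLC1A5 (log2 0.38, SE 0.072, edgeR adjusted p = 0.0032) and lower for SLC38A2 (-0.31, SE 0.078, edgeR adjusted p = 0.017), SLC6A14 (-0.55, SE 0.14, edgeR adjusted p = 0.019) and SLC1A4 (-0.47, SE 0.13, edgeR adjusted p = 0.026). SLC43A3 was not called (-0.12, SE 0.086, edgeR adjusted p = 0.404). DESeq2 called 0 of the 10 on this term, beside 3.56% of 12640 genes with an adjusted p. At an unadjusted p under 0.05 it had 2 of the 10, beside 5.16% of all genes, where edgeR had 5, beside 27.0%.

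To compare cells of unequal depth, each was thinned to 5000 UMIs, and the unthinned share of cells with a UMI is given after the thinned share. The thinned share put the 5 samples in the order of their levels for SLC6A14 and SLC43A3, and in another order for some other transporters. Unthinned, the controls changed places for SLC6A14 and the guide samples for SLC43A3. A SLC6A14 UMI was found in 6.60% of HA FOSL1 cells (5.50% to 7.84%; unthinned 22.0%), against 10.4% of HA control cells (9.38% to 11.5%; unthinned 26.7%). With gRNA2 it was 4.97% (4.15% to 5.88%; unthinned 16.0%) and with gRNA3 4.31% (3.72% to 4.96%; unthinned 13.7%), against 10.2% in VPR control cells (9.06% to 11.4%; unthinned 27.6%). The FOSL1 samples again lay below both controls without overlap. SLC43A3 was found in 22.7% of HA FOSL1 cells (20.8% to 24.7%; unthinned 61.4%), against 16.5% of HA control cells (15.3% to 17.8%; unthinned 42.6%). It was found in 19.1% with gRNA2 (17.6% to 20.7%; unthinned 51.5%) and 17.6% with gRNA3 (16.5% to 18.8%; unthinned 52.1%), against 14.3% of VPR control cells (13.0% to 15.7%; unthinned 41.4%). Each FOSL1 sample lay above its own control, though the guide samples overlapped the HA control.

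SLC1A5 was found in 35.8% of thinned HA FOSL1 cells (33.6% to 38.1%; unthinned 81.7%), against 46.9% of HA control cells (45.2% to 48.6%; unthinned 82.4%), so that this share differed at equal depth and not before thinning. It was found in 40.7% of cells with either guide (unthinned 81.2% with gRNA2 and 83.0% with gRNA3), against 44.1% of VPR control cells (unthinned 81.4%). SLC1A4 was found in 7.81% of HA FOSL1 cells (unthinned 30.1%), against 5.29% of HA control cells (unthinned 17.4%). Its share was 5.16% with gRNA2 (unthinned 19.6%) and 6.67% with gRNA3 (unthinned 21.8%), against 5.95% of VPR control cells (unthinned 17.6%), so the gRNA2 sample lay below its control in thinned share and above it in level, with overlapping intervals in both. SLC7A1, highest in level in HA FOSL1 cells, was found in 14.6% of them (unthinned 51.3%), against 14.3% of HA control cells (unthinned 38.4%), and in 15.4% of cells with gRNA2 (unthinned 41.8%) and 15.7% with gRNA3 (unthinned 44.6%), against 13.8% of VPR control cells (unthinned 38.0%). Those 5 shares overlapped. SLC7A11 was the rarest, in 3.43% to 4.84% of thinned cells of a sample (unthinned 11.6% to 18.0%). SLC38A1 and SLC3A2 were the most widely found, in 48.8% to 52.5% and 48.1% to 54.7% of thinned cells (unthinned 85.6% to 90.9% and 86.3% to 91.1%). Empty droplets held every transporter, from 6.63 CPM for SLC7A11 to 151.4 CPM for SLC3A2, with SLC6A14 at 10.4 CPM and SLC43A3 at 40.2 CPM. If 5% of a cell's UMIs were such free RNA, 0.260% of thinned cells would hold a SLC6A14 UMI from it and 1.00% a SLC43A3 UMI, below every share measured. No cell type without these genes was in the pool to set beside them.

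Within each sample, some transporters differed between cells with many and few tags of late cell cycle genes. Cells were split into terciles by their summed UMIs of 15 genes of G2 and mitosis. SLC6A14 was lower in the upper tercile than in the lower tercile of every sample, by log2 -0.75 in HA FOSL1 cells and -1.22 in HA control cells, and by -1.32 with gRNA2, -1.29 with gRNA3 and -1.45 in VPR control cells, each with an interval below 0. SLC7A5 and SLC3A2 were higher in the upper tercile of every sample, SLC7A5 by 0.46 to 1.05 and SLC3A2 by 0.30 to 0.53. SLC43A3 was higher by 0.28 to 0.82 and SLC7A11 by 0.24 to 1.21, with the HA FOSL1 interval of SLC7A11 reaching below 0 (-0.46 to 0.93). SLC38A1 was higher by 0.08 to 0.38, and its HA FOSL1 interval also held 0. The mean summed count of the 15 genes per thinned cell was 9.36 in HA FOSL1 cells, against 9.35 in HA control cells. It was 9.63 with gRNA2 and 9.05 with gRNA3, against 9.53 in VPR control cells.

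**Figure D3:**
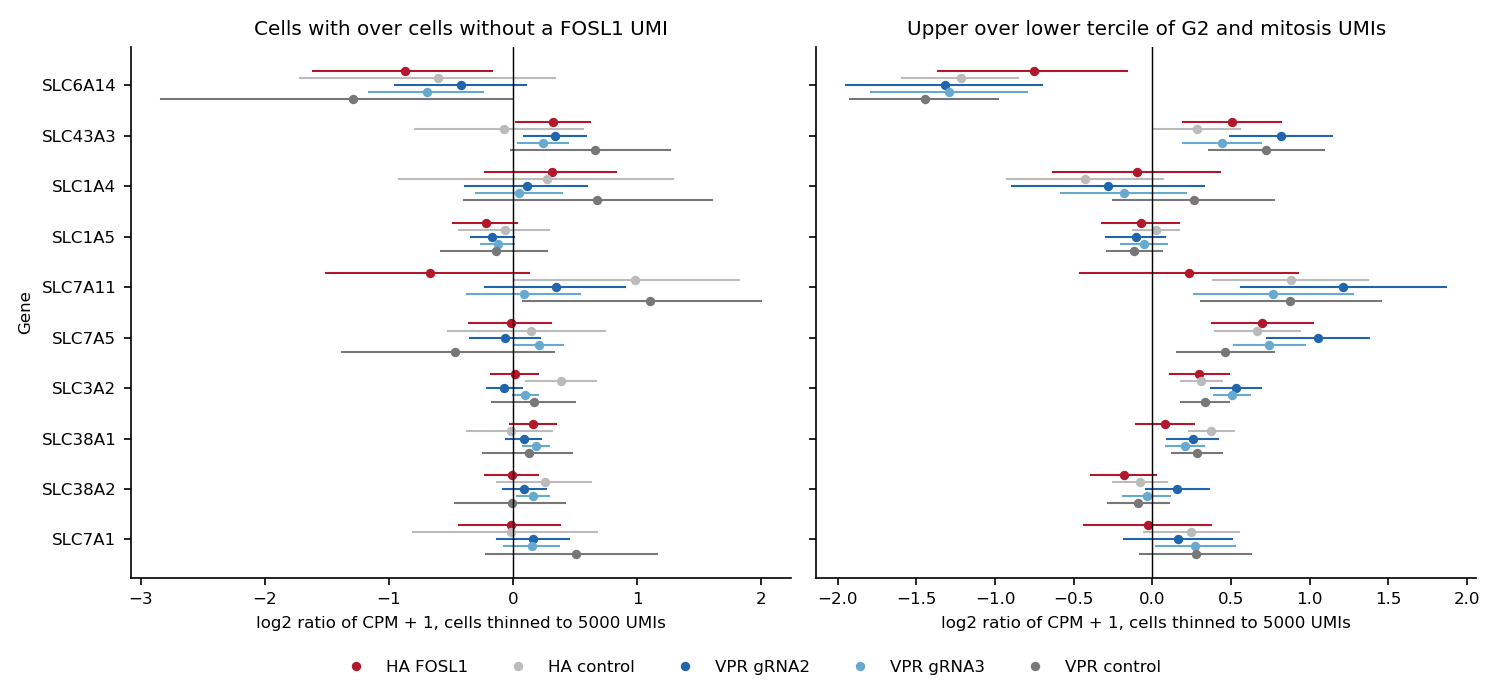
Log2 ratio of CPM + 1 between cells with and without a FOSL1 UMI (left) and between the upper and lower terciles of cells by summed UMIs of G2 and mitosis genes (right), within each sample, in cells thinned to 5000 UMIs. Lines are 95% intervals of counting error; on the right SLC6A14 lies between -1.45 and -0.75 and SLC7A5 between 0.46 and 1.05.

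The SLC6A14 difference between FOSL1 and control samples was then measured within each tercile, a comparison added after the levels were seen. The terciles were cut in each sample by itself, at up to 3 UMIs for the lower tercile in HA FOSL1 cells and up to 2 in the other samples, and above 11 for the upper tercile in HA FOSL1 and VPR control cells and above 10 in the other samples. In the lower tercile SLC6A14 stood at 18.6 CPM in HA FOSL1 cells, against 33.6 CPM in HA control cells (log2 -0.82, -1.22 to -0.43). There it stood at 15.8 CPM with gRNA2 and 14.0 CPM with gRNA3, against 31.3 CPM in VPR control cells (log2 -0.94 and -1.11). The middle tercile gave ratios of -0.66, -1.14 and -1.57 for HA, gRNA2 and gRNA3. The upper tercile gave -0.82 with gRNA2 and -0.95 with gRNA3, while the HA ratio of -0.35 was within counting error there (-0.95 to 0.22, 31 UMIs in HA FOSL1 cells and 76 in HA control cells). SLC6A14 was lower in 9 of 9 such comparisons, 8 of them beyond counting error. These comparisons divide the cells behind the 3 whole-sample ratios, and both guides share 1 control. Their number is therefore not a count of repeats. SLC43A3 was higher in 9 of 9, by 0.22 to 0.68, with 4 of the intervals reaching below 0. With the same bounds in all samples (up to 2 UMIs and above 10), also added later, SLC6A14 was again lower in 9 of 9, by -0.71, -0.71 and -0.30 in the lower, middle and upper range of the HA comparison and by -1.55 to -0.94 with the guides, and only the HA value of the upper range was within counting error (-0.87 to 0.25). SLC43A3 was higher in 9 of 9 there, by 0.20 to 0.65, with 3 intervals reaching below 0. The shared bounds divide the same cells once more.

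**Figure D4:**
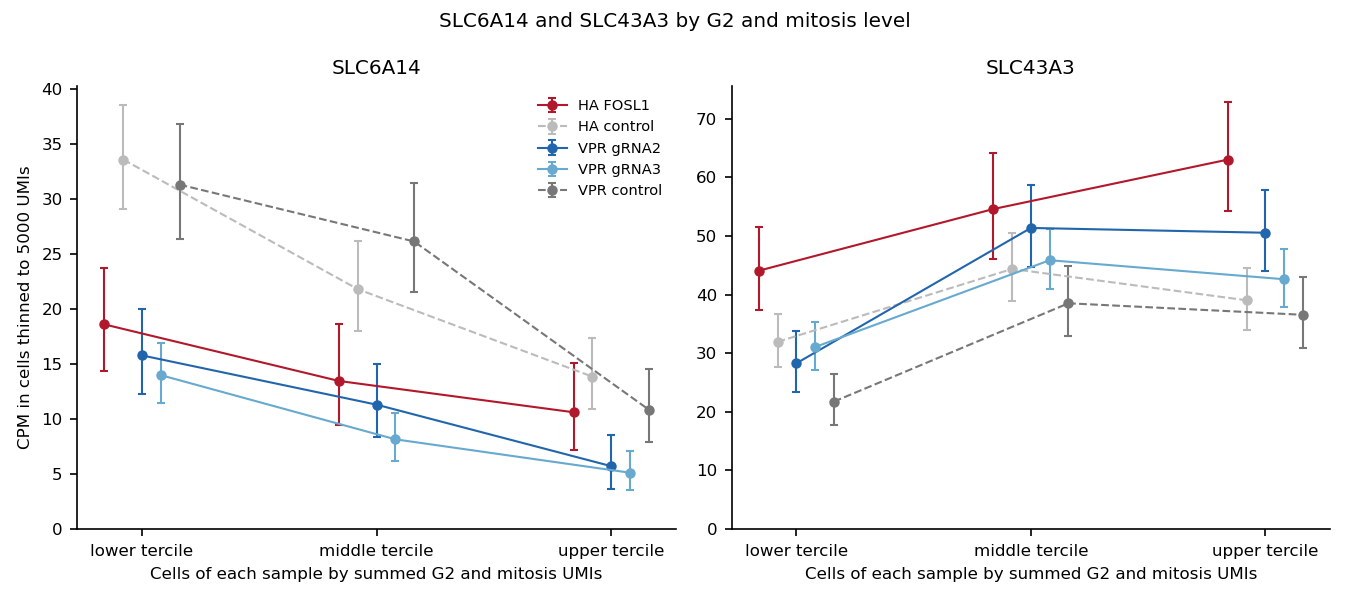
SLC6A14 (left) and SLC43A3 (right) in CPM (vertical axes starting at 0) in the lower, middle and upper terciles of the cells of each sample by summed UMIs of G2 and mitosis genes, in cells thinned to 5000 UMIs. Points are single samples with exact 95% Poisson intervals; for SLC6A14 the FOSL1 samples run from 14.0 to 18.6 CPM in the lower tercile, against 33.6 and 31.3 CPM in the controls.

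Cells in which a FOSL1 UMI was found were compared with the other cells of their own sample. After thinning these were 381 of 1818 cells in HA FOSL1, 781 of 2537 with gRNA2 and 1273 of 4289 with gRNA3, against 105 of 3367 in the HA control and 88 of 2587 in the VPR control. SLC6A14 was lower in cells with a FOSL1 UMI in all 5 samples, by log2 -0.87 (-1.61 to -0.17) in HA FOSL1 cells and -0.70 (-1.16 to -0.24) with gRNA3. The intervals in the gRNA2 sample (-0.42, -0.95 to 0.10) and in the HA control (-0.61, -1.72 to 0.34) held 0, and the VPR control value rests on 4 UMIs (-1.29, -2.84 to -0.01). In cells with no FOSL1 UMI, SLC6A14 was still lower than in such cells of the own control, by -0.53 (-0.82 to -0.24) in the HA system, -0.93 (-1.24 to -0.62) with gRNA2 and -1.10 (-1.36 to -0.83) with gRNA3. SLC43A3 in such cells was higher by 0.39, 0.34 and 0.25 in the HA, gRNA2 and gRNA3 comparisons. Free RNA at 5% would put a FOSL1 UMI in 1.57% of thinned cells, where 3.12% of HA control cells and 3.40% of VPR control cells had one. A cell without a FOSL1 UMI may still express the gene at this depth.

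From cell to cell the transporters were only weakly related. Over 45 pairs in each of the 5 samples, Spearman correlations across thinned cells ran from -0.060 to 0.084, in counts so sparse that most cells had no UMI of most of these genes. The highest medians over samples, themselves close to 0, were those of the CD98 pairs, SLC7A11 with SLC3A2 (0.063) and SLC7A5 with SLC3A2 (0.062).

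For the 3 transporters with the widest range, the genes with the most similar profile over the 5 samples were found by the root mean square difference of centred log2(CPM + 1), among genes that averaged 20 CPM or more. For SLC6A14 they were CYP4X1 (0.16), a cytochrome P450, CLU (0.18), the secreted chaperone clusterin, and RARRES3 (0.19), a retinoid-induced phospholipase. For SLC43A3 they were PTPN14 (0.038), a protein tyrosine phosphatase, HIBADH (0.048), a mitochondrial enzyme of valine breakdown, and SLC2A1 (0.050), the glucose carrier GLUT1. SLC2A1 stood at 56.5 CPM in HA FOSL1 cells, against 40.0 CPM in HA control cells, and at 48.8 CPM with gRNA2 and 48.6 CPM with gRNA3, against 40.6 CPM in VPR control cells. For SLC1A4 they were SOD2 (0.018), the mitochondrial superoxide dismutase, PRRG4 (0.021) and RHOC (0.025), a small GTPase, all higher mainly in HA FOSL1 cells. With 5 samples such likeness is a description.

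The promoter table held 14 windows for 8 of the 10 transporters, from 250 bases before to 50 bases after a transcript start (RefSeq, GRCh38.p14). Because AP-1 is known to bind TGACTCA or TGAGTCA, both strands were searched for these letters, and 3 of the 14 windows held them, beside 4.95% of all 35116 windows. The 3 windows belong to the transporter that varied most, SLC6A14, and to those that varied least, SLC3A2 and SLC38A1, which is why the 250 bases before their starts are shown. Capitals mark the AP-1 letters. The SLC6A14 stretch is chrX:116436356-116436605 (plus strand), that of SLC3A2 chr11:62881449-62881698 (plus strand) and that of SLC38A1 chr12:46266517-46266766 (minus strand). The SLC3A2 and SLC38A1 stretches lie inside the annotated span of their gene, before an inner start.
SLC6A14: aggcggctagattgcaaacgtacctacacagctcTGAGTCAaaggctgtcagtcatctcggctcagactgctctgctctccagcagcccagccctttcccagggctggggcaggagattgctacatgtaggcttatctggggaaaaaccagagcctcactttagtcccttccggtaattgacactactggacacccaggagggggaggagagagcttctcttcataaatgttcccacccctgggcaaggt
SLC3A2: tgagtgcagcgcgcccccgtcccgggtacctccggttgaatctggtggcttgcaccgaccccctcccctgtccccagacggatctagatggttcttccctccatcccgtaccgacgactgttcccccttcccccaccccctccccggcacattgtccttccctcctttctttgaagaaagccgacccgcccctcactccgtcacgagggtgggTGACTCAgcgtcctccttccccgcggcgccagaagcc
SLC38A1: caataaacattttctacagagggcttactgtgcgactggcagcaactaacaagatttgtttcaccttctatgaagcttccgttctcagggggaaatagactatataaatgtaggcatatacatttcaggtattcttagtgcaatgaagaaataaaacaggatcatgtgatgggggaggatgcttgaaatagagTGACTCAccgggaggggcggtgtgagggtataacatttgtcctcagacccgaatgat

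The match lies at -216 from the start in SLC6A14, at -57 in SLC38A1 and at -37 in SLC3A2. The SLC3A2 match overlaps one to TGACNNNGC, letters bound by NRF2, the factor of the oxidative stress response, which 4 of the 14 windows held beside 13.3% of all. The ATF4 letters TGATGNAA were in 5 of the 14 windows, those of SLC1A4, SLC3A2, SLC38A1, SLC7A1 and SLC1A5, beside 3.62% of all. The MYC letters CACGTG were in 2 (SLC7A5 and SLC1A5), beside 7.26%, and TGACGTCA was in 0, beside 1.85%. A match in such a window is a description of its letters and not a measured site.

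Other genes of amino acid handling were mostly near their controls, where the median log2 ratio of all genes at 20 CPM was 0.00 in the HA system, 0.01 with gRNA2 and 0.00 with gRNA3. Of 33 other surface amino acid transporters 18 had enough counts for the model, which called 0, beside 1.61% of 15439 genes. At an unadjusted p under 0.05 there were 2 genes above and 5 below the controls, beside 13.4% and 12.6% of all genes, and DESeq2 called 3, beside 7.48%. The glutamate carriers SLC1A6 and SLC1A3 were the members above a mean of 20 CPM. Of these, SLC1A6 was past 1.5-fold in the HA comparison, beside 8.16% of all genes there. SLC1A6 stood at 77.0 CPM in HA FOSL1 cells, against 121 CPM in HA control cells, and at 109 CPM with gRNA2 and 102 CPM with gRNA3, against 138 CPM in VPR control cells (log2 -0.65, -0.34 and -0.43; edgeR adjusted p = 0.051). SLC1A3 lay at -0.13, -0.10 and -0.13.

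Of 24 ATF4 response genes, which amino acid shortage is known to raise, 15 stood at 20 CPM or more. Of those, 0 were past 1.5-fold in any comparison, beside 8.16% (HA), 1.51% (gRNA2) and 1.79% (gRNA3) of all genes. The model called 0 of the 24, beside 1.61% of 15439 genes. Unadjusted p was under 0.05 for 2 of the 24 above and 5 below the controls, beside 13.4% and 12.6% of all genes, and DESeq2 called 1, beside 7.48%. The median ratios of those 15 were -0.10, -0.10 and 0.02. The farthest below were PHGDH (-0.35, -0.27 and -0.13), PSPH (-0.45, -0.17 and -0.09) and NUPR1 (-0.10, -0.38 and -0.27). The farthest above were CEBPG (0.20, 0.07 and 0.15), PSAT1 (0.02, -0.01 and 0.17) and MTHFD2 (0.07, 0.05 and 0.08). The 20 aminoacyl-tRNA synthetases, which charge tRNAs, had 0 members past 1.5-fold and 0 called, beside the same shares of all genes. Unadjusted p was under 0.05 for 3 synthetases above and 0 below the controls, and DESeq2 called 0. Their median ratios were 0.03, 0.01 and 0.05.

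Among 12 genes of glutathione, the product that cystine uptake feeds, GCLM, the modifier subunit of the first enzyme, was 0.63 higher in the HA system, where the guide comparisons had 0.18 and 0.21 and the VPR control lay 0.28 above the HA control (edgeR adjusted p = 0.110). GPX4, the peroxidase that repairs lipids, lay at -0.44, -0.08 and -0.07 (edgeR adjusted p = 0.20). Of 12 glutamine and glutamate genes, glutamine synthetase GLUL lay at -0.59, -0.19 and -0.23 (edgeR adjusted p = 0.101). Of 25 genes that signal amino acids to the growth kinase complex mTORC1, the GTPase gene RRAGC lay at 0.65, 0.25 and 0.26 (edgeR adjusted p = 0.085). Of 10 regulators of transporters, the ubiquitin ligase gene NEDD4L lay at 0.70, 0.39 and 0.29 (edgeR adjusted p = 0.071) and HIF1A at 0.54, -0.10 and -0.11. These 4 lists had 8, 9, 6 and 8 genes at 20 CPM, in the order given. GCLM, GLUL, RRAGC and NEDD4L were those past 1.5-fold, all of them in the HA comparison, and 0 were past it with either guide. Of all genes 8.16% were past that size in the HA comparison, 1.51% with gRNA2 and 1.79% with gRNA3. The model called 0 genes in each list, beside 1.61% of 15439 genes. DESeq2 called 1 glutathione, 1 glutamine, 3 mTORC1 and 2 regulator genes, and at an unadjusted p under 0.05 edgeR had 3 glutathione genes higher and 1 lower, 2 glutamine genes higher and 3 lower, 2 mTORC1 genes higher and 5 lower, and 3 regulators higher and 2 lower. Over all genes DESeq2 called 7.48%, and edgeR had 13.4% higher and 12.6% lower at that unadjusted p.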

How the data were processed

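Raw UMI counts of genes by barcode were deposited as 1 matrix, made by the authors with Cell Ranger version 4, per the file headers, on build hg38, per the submitters' processing notes. A deposited table assigns called cells to samples, with the probability as a fraction between 0 and 1. Of 21228 called cells, 15371 (72.4%) were assigned to 1 sample, and 5181 multiplets, 402 unassigned cells and 274 blanks were left out. The labels speak of a pool of 6 stained samples, and 5 were analysed here. Doublets within a sample were not called. Kept cells (14642, and 0 barcodes shared between samples) had at least 1500 genes and at most 20% mitochondrial UMIs.

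UMIs were summed per sample and scaled to CPM (per 1000000 UMIs of the sample). Ratios are log2 of CPM + 1, FOSL1 sample over the control of its own system, with exact conditional binomial intervals. Levels have exact Poisson and shares of cells exact Clopper-Pearson intervals, all of counting error only. Only tags near the 3' end were counted, so a level does not scale with transcript length. Empty droplets were 48909 barcodes with 10 to 100 UMIs. Summed counts were tested with edgeR 4.0.16 (TMM, filterByExpr, Benjamini-Hochberg adjustment over all genes tested) and DESeq2 1.42.0 in R 4.3.3. The edgeR fit was also run on simulated counts with the same effect in all FOSL1 samples and no difference between systems. That run does not bear on differences between the systems.

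The 10 transporters, the other gene lists and the tests were chosen with earlier results of these data known. The text names all 10 and, from each other list, genes among the 3 highest and 3 lowest over the 3 comparisons at a mean of 20 CPM or more. Alternatives covered the pseudocount, scaling, cell filters, thinning, free RNA, the control used, filters on genes and each sample left out.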

Additional observations from a re-analysis of the deposited data

Results flagged for a closer look

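For 4 transporters edgeR's interaction term (guides minus HA) passed the threshold, as it did for 13.6% of 15439 genes. SLC1A5 was 0.38 log2 higher in the guide comparisons (edgeR adjusted p = 0.0032), and its ratios were -0.51 in the HA system, -0.13 with gRNA2 and -0.11 with gRNA3. For SLC1A4 the term was -0.47 (edgeR adjusted p = 0.026), with ratios of 0.54, 0.05 and 0.16 in the same order. For SLC38A2 it was -0.31 (edgeR adjusted p = 0.017), with 0.31, -0.02 and 0.05. For SLC6A14 it was -0.55 (edgeR adjusted p = 0.019), with -0.66, -1.01 and -1.26. The spread behind this term comes from the 2 guide samples alone, which share 1 control, so it does not show that the systems differ, and DESeq2 called none of the 4.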

How the results depend on the processing

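The 3 ratios past 1.5-fold became 2 with a pseudocount of 5 CPM, where SLC6A14 in the HA comparison came to -0.55. They became 5 with the control of the other system, where SLC43A3 and SLC1A4 in the HA comparison came to 0.59, and 4 with DESeq2's size factors or without the 10% of cells with the most UMIs, where SLC1A4 came to 0.59. Under all 10 alternatives for the ratios, SLC6A14 kept its direction, from -0.69 to -0.55 in the HA system, -1.07 to -0.81 with gRNA2 and -1.35 to -1.0 with gRNA3. No ratio of at least 0.2 changed sign, and SLC1A4 with gRNA2 turned to -0.20 after thinning. The model of the 5 samples, which called 1 transporter and 248 of 15439 genes, called 2 and 1117 of 14931 with DESeq2. It called 2 and 1984 of 23639 without the filter on low counts, and 0 and 199 of 15439 without the covariate. Leaving out 1 sample gave 0 to 7 transporters and 0 to 5937 genes. It called 7 and 5937 without the VPR control, 3 and 2053 without the HA control, 3 and 1850 without HA FOSL1, and 0 and 0 without gRNA2 (4 transporters and 2614 genes at an unadjusted p under 0.05) or without gRNA3 (3 and 2371). The fits without the VPR control, the HA control and HA FOSL1 tested 16049, 15783 and 15439 genes. Those without gRNA2 and without gRNA3 tested 15405 and 15199. In the first 3 of these fits the spread comes from the 2 guide samples alone, so no weight is put on their counts. For the interaction, DESeq2 called 0 transporters and 450 of 12640 genes with an adjusted p. The cause was not tested. No paired analysis was possible because each group held 1 sample. SLC7A11, SLC6A14 and SLC1A4, at 7.47 to 23.5 CPM, rest on the fewest counts.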
